A study of Homo sapiens with 8 samples.

Results

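The clustered protocadherin genes PCDHA, PCDHB and PCDHG lie next to each other on chromosome 5, and the binding of SOX2, OCT4 and NANOG around them was described from 6 ChIP-seq peak lists. A peak was a member where 1 of the 2 nearest gene starts listed for it belonged to these clusters and lay at most 50 kb away. Of 201619 peaks in all lists, 59 met this rule: 23 at PCDHA, 17 at PCDHB and 19 at PCDHG. All 59 peaks that named a cluster gene at any distance were members, and the farthest lay 37.6 kb from its gene start, so the distance limit removed none. The lists came from NT2/D1, an established embryonal carcinoma cell line derived from a human germ cell tumour, and from H9, an established human embryonic stem cell line. Neither line carried a stated treatment or engineered allele in the labels. Each line was profiled with antibodies to SOX2, OCT4 and NANOG, with 1 library per factor. Each list was called against a control, and the labels give 1 IgG sample per line. There were no replicates, so no test between libraries was possible and each confidence interval covers counting error only.

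Clustered protocadherins are cell adhesion proteins of the cadherin superfamily that give neurons a surface identity used in self-recognition. In the PCDHA and PCDHG clusters, each variable exon has its own promoter and is spliced to constant exons shared by its cluster, while each PCDHB gene is a gene of its own. Single neurons choose a subset of these promoters, a choice that involves CTCF, cohesin, DNA methylation and distal enhancers. The C-type genes PCDHAC1, PCDHAC2, PCDHGC3, PCDHGC4 and PCDHGC5 stand at the ends of their clusters and are less subject to this choice. SOX2, OCT4 and NANOG are transcription factors that maintain pluripotency.

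Depth and calling settings differed between the lines. The NT2/D1 libraries had 23160564 unique tags for SOX2, 10218752 for OCT4 and 19669139 for NANOG, and the H9 libraries had 54046559 to 77649240. A peak that was not listed in NT2/D1 is therefore not shown to be absent. The controls had 2937004 unique tags of 17173085 in total for NT2/D1 SOX2 and NANOG. They had 6479071 of 12359411 for NT2/D1 OCT4 and 58012070 of 84245266 for H9. Folds are thus not directly comparable between the lines, nor in NT2/D1 between OCT4 and the other factors. The NT2/D1 libraries titled OCT4 and NANOG carry each other's factor in another label field, while a further field repeats the titles. The titles were followed here. If the other field were right, each NT2/D1 value given for OCT4 would be one for NANOG and the reverse. Tags, folds over background and scores are the authors' own values for each peak. Strength is given as the score percentile, the percent of peaks in the same list with a score no higher.

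In each cluster, most promoters shared a short stretch of sequence, while likeness over their whole length was not measured. Promoters are shown because 13 of the 59 peaks overlapped a gene start, over 8 genes in all. Of these genes, PCDHA10, PCDHB8 and PCDHGB2 are not printed. RefSeq promoters of GRCh38.p14, from 250 bases before to 50 bases after the start, were found for 47 of 53 protein-coding cluster genes. PCDHA3, PCDHA13, PCDHB6, PCDHB11, PCDHGA12 and PCDHGC5 had no entry. The starts in that build may differ from those used for the peak lists. A peak over a start can reach past this window and have its summit outside it, so these are not peak sequences. Of the genes shown, PCDHB5 had a peak over its start in 4 lists, PCDHAC2 in 3, and PCDHB15, PCDHA12 and PCDHGA10 in 1 each. Capitals mark the letters CGCT on either strand (CGCT or AGCG). CGCT is the core of the conserved element known from protocadherin promoters, but a match to these letters alone does not show the element. Each line is written 5′ to 3′ on the plus strand.
PCDHB5: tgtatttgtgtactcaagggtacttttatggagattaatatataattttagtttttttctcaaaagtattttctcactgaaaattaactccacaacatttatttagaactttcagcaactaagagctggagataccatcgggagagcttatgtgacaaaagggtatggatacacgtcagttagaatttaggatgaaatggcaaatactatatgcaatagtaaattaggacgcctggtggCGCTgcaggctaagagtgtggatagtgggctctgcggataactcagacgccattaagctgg
PCDHB15: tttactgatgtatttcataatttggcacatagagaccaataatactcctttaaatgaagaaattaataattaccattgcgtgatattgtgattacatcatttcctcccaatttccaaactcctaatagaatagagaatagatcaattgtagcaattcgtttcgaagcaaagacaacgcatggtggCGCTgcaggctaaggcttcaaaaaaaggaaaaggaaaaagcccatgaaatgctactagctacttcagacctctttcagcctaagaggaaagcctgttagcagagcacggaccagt
PCDHA12: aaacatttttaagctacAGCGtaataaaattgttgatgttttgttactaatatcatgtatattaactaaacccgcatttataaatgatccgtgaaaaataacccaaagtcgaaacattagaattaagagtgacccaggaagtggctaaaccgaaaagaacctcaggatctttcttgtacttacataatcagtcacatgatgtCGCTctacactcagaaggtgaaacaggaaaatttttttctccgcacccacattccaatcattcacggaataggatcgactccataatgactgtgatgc
PCDHAC2: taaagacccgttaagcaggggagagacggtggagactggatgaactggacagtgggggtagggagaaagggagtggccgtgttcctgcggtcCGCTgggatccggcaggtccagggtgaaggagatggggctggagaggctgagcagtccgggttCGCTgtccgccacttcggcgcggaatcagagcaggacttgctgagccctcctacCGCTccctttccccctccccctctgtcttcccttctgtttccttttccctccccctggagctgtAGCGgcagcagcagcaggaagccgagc
PCDHGA10: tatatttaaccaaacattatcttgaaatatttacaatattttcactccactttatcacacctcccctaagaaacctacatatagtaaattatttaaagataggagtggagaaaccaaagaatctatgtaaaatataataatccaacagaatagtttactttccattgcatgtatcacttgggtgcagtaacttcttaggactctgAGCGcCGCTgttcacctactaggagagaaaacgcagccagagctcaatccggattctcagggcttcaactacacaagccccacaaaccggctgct

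CGCT, searched on both strands, occurred in 46 of the 47 cluster promoters (97.9%), against 69.4% of 27305 RefSeq promoters of the same length. One 8-letter word with CGCT in it was taken for each cluster, among those held by most of its promoters. At PCDHB it was GTGGCGCT, in 13 of 14 promoters, against 1.18% of all promoters. At PCDHA it was ATGTCGCT, in 9 of 13 promoters, against 0.245% of all. At PCDHG it was GCCGCTGT, in 11 of 20, against 1.60% of all. Each of these words was at 0 in the promoters of the other clusters. TGGCGCTG, another word with CGCT, was in 12 of 14 PCDHB promoters and in 1 of 20 at PCDHG. The PCDHG words GCGCCGCT and CGCCGCTG were at 0 in the other clusters. The PCDHB word began a median of 65 bases before the start, the PCDHA word 52 and the PCDHG word 67. These words were picked after the sequences had been read, and genes of a cluster are duplicates of each other. PCDHGB2, which had a peak over its start but is not printed, lacks the PCDHG word. PCDHAC2 lacks the PCDHA word, and its promoter is 63% G and C, against a median of 37.3% over 13 PCDHA promoters and 58.3% over all promoters.

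Letters from the motifs of the mapped factors were searched on both strands in the same windows. ACAAAG, a SOX core, occurred in 15 of 47 cluster promoters (31.9%), against 15.997% of all promoters. ACAATG, another SOX core, occurred in 7 (14.9%), against 10.97%. ATGCAAAT, the octamer that OCT4 recognises, occurred in 1 (2.13%), against 1.80%. CCCTC, a part of the CTCF motif, occurred in 12 (25.5%), against 70.3%. The cluster promoters were poorer in G and C than most, with a median of 39.7%, and the part of base composition in these shares was not tested.

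Peaks at the clusters made up a small part of each list. NT2/D1 had 5 members in the SOX2 list, 15 in the OCT4 list and 3 in the NANOG list, and H9 had 8, 13 and 15. In SOX2, this was 1.30 per 10000 peaks in NT2/D1 (95% exact binomial interval 0.423 to 3.04) and 4.13 in H9 (1.79 to 8.15). In OCT4, it was 3.25 in NT2/D1 (1.82 to 5.36) and 4.396 in H9 (2.34 to 7.52). In NANOG, it was 0.877 in NT2/D1 (0.181 to 2.56) and 4.43 in H9 (2.48 to 7.298). The intervals of the lines overlapped for SOX2, OCT4 and NANOG, for NANOG only from 2.48 to 2.56. Such overlap is no test and does not show that the lines are alike.

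As a share of the peaks on chromosome 5, members ranged from 0.432% to 0.8004% over the lists. SOX2 members were 0.618% of these peaks in NT2/D1 and 0.617% in H9. OCT4 members were 0.8004% in NT2/D1 and 0.742% in H9. NANOG members were 0.432% in NT2/D1 and 0.704% in H9. Chromosome 5 itself held 2.11%, 4.06% and 2.03% of the NT2/D1 SOX2, OCT4 and NANOG peaks, and 6.70%, 5.92% and 6.29% of the H9 peaks.

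Peaks per Mb at the locus were set beside those on the rest of chromosome 5. The locus was taken as the 893 kb from the peaks over VTRNA1-3, a vault RNA gene, to the start of DIAPH1, a formin gene (chr5:140106121-140998622, build hg19). In NT2/D1 it held 5.60 SOX2, 19.0 OCT4 and 4.48 NANOG peaks per Mb, against 4.47, 10.3 and 3.84 on the rest of the chromosome. In H9 it held 8.96, 15.7 and 17.9 per Mb, against 7.17, 9.66 and 11.8. The ratio ran from 1.17 for NT2/D1 NANOG to 1.84 for NT2/D1 OCT4, and was 1.25 for SOX2 in each line. These ratios rest on 4 to 17 peaks a list and have no test. With 4 NT2/D1 NANOG, 5 NT2/D1 SOX2 and 8 H9 SOX2 peaks, these lists were near the rest of the chromosome.

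**Figure D1:**
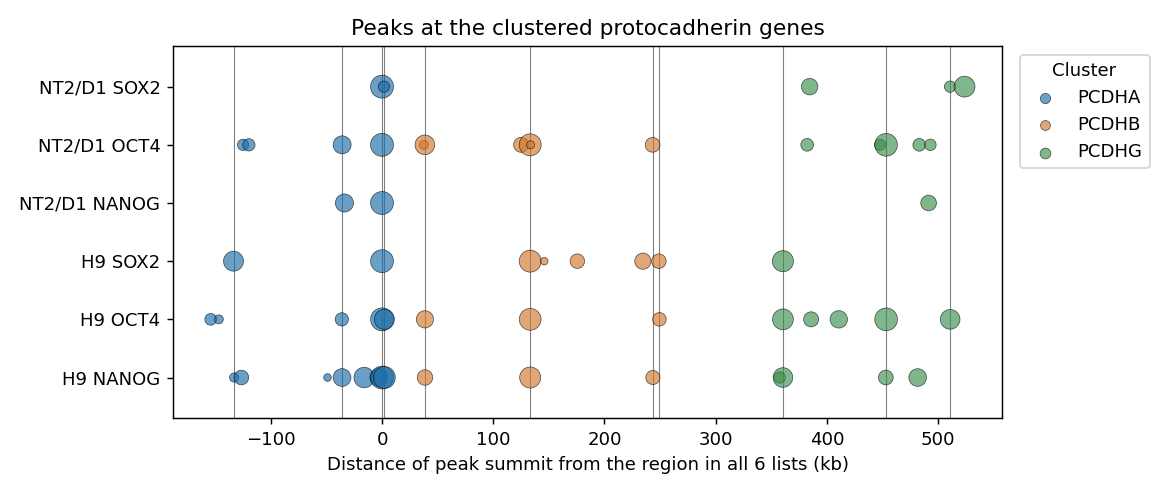
Positions of the 59 member peaks in the 6 lists. The horizontal axis is the distance of a peak summit from the region in all 6 lists in kb, each row is a list, the area of a point grows with the score percentile and its colour gives the cluster. Grey lines mark the 11 regions in at least 2 lists, of which the line at 0 is the one where every row has a large point.

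Peaks that overlapped by at least 1 bp were joined into 35 regions, 13 at PCDHA, 8 at PCDHB and 14 at PCDHG. Of these, 24 (68.6%, interval 50.7 to 83.1) rested on 1 list, against 80.3% of the 148059 regions of the whole series. There were 19 regions with an NT2/D1 peak and 24 with an H9 peak, and 8 had a peak in both lines. These 8 were 42.1% of the NT2/D1 regions (20.3 to 66.5), against 12.8% in the series, and 33.3% of the H9 regions (15.6 to 55.3), against 24.5% in the series. By cluster, 3 of the shared regions were at PCDHA, 3 at PCDHB and 2 at PCDHG. Regions within a locus are not independent samples.

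The region in all 6 lists lay between the starts of PCDHAC2 and PCDHB1 (chr5:140380817-140382727, hg19). It was 34466 to 35517 bp beyond the start of PCDHAC2 and 48251 to 48802 bp before that of PCDHB1, so all 6 of its peaks met the rule for both clusters. Exon and intron annotation of hg19 was not used here, so whether the region lies within the PCDHA transcripts was not read. In NT2/D1 its peaks held 41 SOX2, 70 OCT4 and 38 NANOG tags. In H9 they held 239 SOX2, 137 OCT4 and 280 NANOG tags. The folds were 23.3, 25.2 and 26.5 in NT2/D1 and 24.5, 14.0 and 25.4 in H9. It was the strongest member of every list.

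Within the lists this region ranked high. In NT2/D1 it ranked 95 among 38423 for SOX2, 91 among 46169 for OCT4 and 215 among 34208 for NANOG. In H9 it ranked 243 among 19349 for SOX2, 217 among 29575 for OCT4 and 585 among 33895 for NANOG. Its lowest percentile was 98.3, which placed it 73rd of the 1218 regions of the series with peaks in all 6 lists. The median of these regions was 75.0.

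The summits of its 6 peaks fell within 32 bp. Over the 1218 such regions the median span of the summits was 67 bp, and 149 (12.2%) were as tight or tighter. The deposited FDR of this region was 41.05% for SOX2 and 27.9% for NANOG in NT2/D1, lists in which the deposited FDR rises with score. It was 3.3% for OCT4 in NT2/D1. In H9 it was 1.23% for SOX2, 5.53% for OCT4 and 0.85% for NANOG.

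A neighbouring region 36.8 to 37.6 kb beyond the PCDHAC2 start (chr5:140383172-140384482) was listed for SOX2 in NT2/D1, and for OCT4 and NANOG in H9. It held 18 tags in the NT2/D1 SOX2 list with a fold of 4.25, at percentile 18.1. In H9 it held 51 tags for OCT4 with a fold of 5.51 and 132 tags for NANOG with a fold of 10.2, at percentiles 74.8 and 90.7. The lines therefore listed different factors there. In H9, NANOG also had peaks 19.2 and 32.0 kb beyond the start, with 77 and 82 tags and folds of 6.31 and 3.98. No other list had a peak at those sites.

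Within 1 kb of a PCDHA start, peaks lay between percentiles 8.36 and 73.1. PCDHAC2 had a region over its start (chr5:140345238-140346269) with 6 tags for OCT4 in NT2/D1, and with 42 tags for OCT4 and 61 for NANOG in H9. The folds were 9.56 in NT2/D1 and 3 and 3.86 in H9, at percentiles of 58.2, 28.1 and 56.6. An NT2/D1 NANOG peak of 9 tags lay 1738 bp beyond this start. PCDHA11, an alternate gene, had a region 401 to 450 bp beyond its start (chr5:140248231-140249426), with 85 tags for SOX2 and 54 for NANOG in H9. The SOX2 fold was 3.92 and the NANOG fold 3.63, at percentiles of 73.1 and 9.18.

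The other PCDHA starts with a peak within 1 kb had 1 list each. PCDHA13 had an NT2/D1 OCT4 peak of 5 tags 375 bp beyond its start, with a deposited FDR of 20.25%. PCDHA10 had an H9 OCT4 peak of 46 tags over its start, and PCDHA9 one of 22 tags 457 bp beyond its start. The deposited FDR was 12.36% at PCDHA10 and 11.45% at PCDHA9. PCDHA12 had an H9 NANOG peak of 59 tags over its start, with a deposited FDR of 2.34%. PCDHA1 to PCDHA8 were named by no peak. To the left of the member nearest to PCDHA9, no list had a peak for 122 kb.

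**Figure D2:**
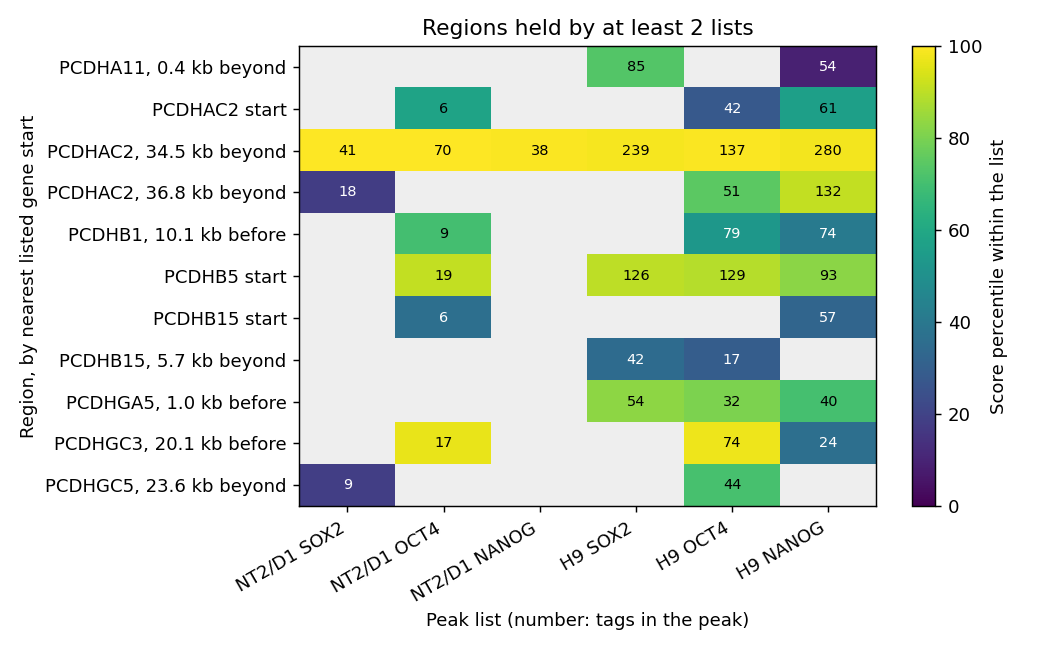
The 11 regions held by at least 2 lists, by list. Rows are regions named by the nearest listed gene start with its distance, columns are lists, colour is the score percentile of the strongest peak of that list in the region, and the number is its tags, with grey for no peak. The region 34.5 kb beyond PCDHAC2 is filled in every column and the PCDHB5 start in 4.

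At PCDHB, the start of PCDHB5 was the gene start with the most lists. Its region (chr5:140514601-140515911) held 19 OCT4 tags in NT2/D1. In H9 it held 126 SOX2, 129 OCT4 and 93 NANOG tags. The fold was 7.63 in NT2/D1 and 11.04, 5.68 and 6.76 in H9, at percentiles of 90.7 in NT2/D1 and 90.1, 88.9 and 82.5 in H9. The 4 summits fell within 29 bp, 422 to 451 bp beyond the start, farther than the 50 bases after a start that the printed window covers. A further NT2/D1 OCT4 peak of 6 tags lay 650 bp beyond the start. In NT2/D1, PCDHB had neither SOX2 nor NANOG peaks by nearer gene.

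The region 10.1 to 11.2 kb before PCDHB1, the outermost gene of its cluster (chr5:140419576-140420911), was listed for OCT4 in NT2/D1, and for OCT4 and NANOG in H9. The stronger of its 2 NT2/D1 OCT4 peaks had 9 tags and a fold of 8.79, at percentile 70.2. In H9 it had 79 tags and a fold of 3.48 for OCT4, and 74 tags and a fold of 2.87 for NANOG, at percentiles of 52.8 and 40.8. It lies downstream of PCDHA, on the side where enhancers of that cluster are known, but no enhancer annotation was used here. No list had a peak in the 86.1 kb that followed it.

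The remaining PCDHB regions lay between percentiles 3.60 and 45.95. At the PCDHB15 start (chr5:140624632-140625873), NT2/D1 OCT4 had 6 tags 84 bp beyond the start, and H9 NANOG had 57 tags over the start. Their folds were 8.14 in NT2/D1 and 3.12 in H9, at percentiles of 36.6 and 32.7. Their deposited FDRs were 18.36% in NT2/D1 and 2.97% in H9. A region 5.67 to 6.19 kb beyond PCDHB15 (chr5:140630811-140631657) had 42 tags for SOX2 and 17 for OCT4 in H9, with folds of 3.38 and 4.06. H9 SOX2 had a peak of 62 tags over the PCDHB8 start, with a fold of 3.46 and a deposited FDR of 12.76%. Another H9 SOX2 peak, of 43 tags, lay 2340 bp beyond PCDHB18, a pseudogene.

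At PCDHG, the region with all 3 factors in H9 and none in NT2/D1 lay between PCDHGB2 and PCDHGA5 (chr5:140742138-140742856). In H9 it held 54 SOX2, 32 OCT4 and 40 NANOG tags, with folds of 10.4, 6.77 and 7.03 and percentiles of 82.9, 80.4 and 70.6. Its summits fell within 58 bp, 1392 to 1450 bp before the start of PCDHGA5. With this region, H9 had all 3 factors in 1 region of each cluster. NT2/D1 had all 3 in the PCDHA region only.

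The strongest OCT4 peaks of PCDHG lay away from any start, 20.1 to 20.2 kb before PCDHGC3 (chr5:140834884-140835485). The site held 17 tags with a fold of 22.0 in NT2/D1, and 74 tags with a fold of 13.5 in H9. These are percentiles of 96.7 in NT2/D1 and 97.6 in H9. NANOG in H9 had 24 tags there with a fold of 3.83, at percentile 36.4, with its summit 268 bp from that of OCT4 in H9. No SOX2 peak was listed at the site in either line.

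Both lines had peaks near the C-type PCDHG genes. PCDHGC4 had an NT2/D1 OCT4 peak of 13 tags 132 bp beyond its start. An H9 NANOG peak of 43 tags lay 514 bp before that start. These peaks did not overlap, and their deposited FDRs were 19.95% for NT2/D1 OCT4 and 0.6% for H9 NANOG. PCDHGC5 had NT2/D1 peaks of 8 tags for NANOG and 10 for OCT4, 4487 and 6071 bp beyond its start. A region 23.6 to 23.7 kb beyond PCDHGC5 (chr5:140892393-140892940), where peaks of the lines overlapped, had 9 tags for SOX2 in NT2/D1 and 44 tags for OCT4 in H9, with folds of 6.25 and 3.59. A further NT2/D1 SOX2 peak of 13 tags lay 36.8 kb beyond this gene, at percentile 80.6.

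Among the alternate PCDHG genes, PCDHGB4 had an NT2/D1 SOX2 peak of 9 tags 798 bp before its start and an H9 OCT4 peak of 26 tags 296 bp beyond it. PCDHGA10 had an H9 OCT4 peak of 29 tags over its start, and PCDHGB2 an H9 NANOG peak of 19 tags. No NT2/D1 list had a peak over either start. The folds of these 2 peaks were 3.59 for PCDHGA10 and 4.44 for PCDHGB2.

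**Figure D3:**
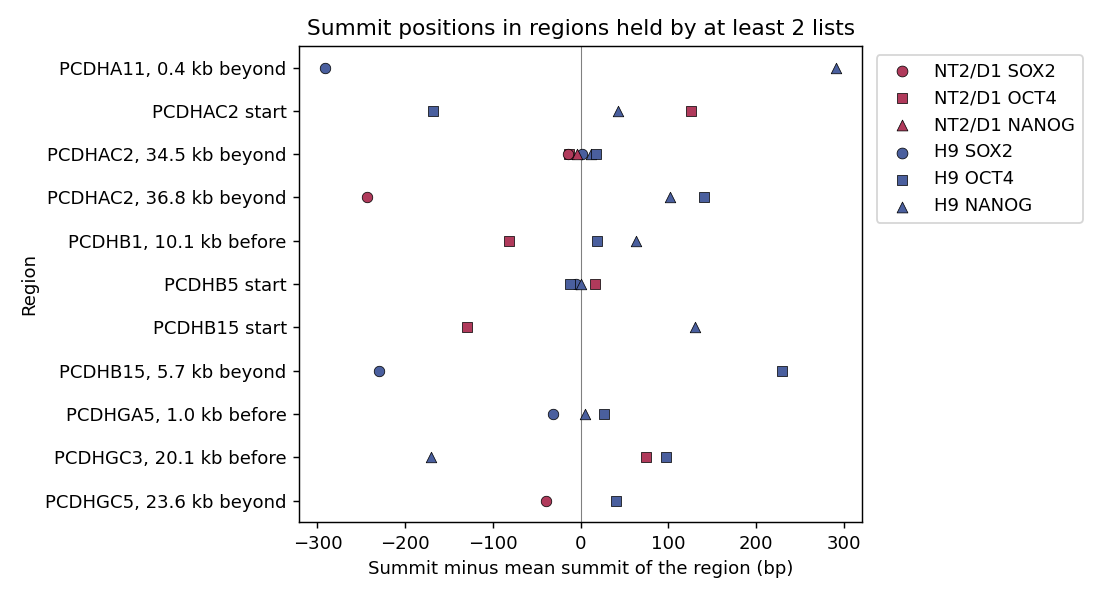
Summit positions in the 11 regions held by at least 2 lists. The horizontal axis is the summit of the strongest peak of a list minus the mean summit of the region in bp, colour gives the line and shape the factor. The points lie within 32 bp at the region 34.5 kb beyond PCDHAC2, within 29 bp at PCDHB5 and within 58 bp at PCDHGA5, and span up to 583 bp elsewhere.

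Tight summits went with the regions that held all 3 factors of a line. In 3 of the 11 shared regions the summits fell within 60 bp, and these are the 3 regions with all 3 factors in H9. The median span over the 11 regions was 260 bp. The widest, 583 bp, was at PCDHA11. The H9 lists share an IgG library, and the part of this in the agreement of summits was not tested.

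Members spread over the whole range of their lists. Of the 59 members, 11 were above percentile 90, and 6 of these were the peaks of the region in all 6 lists. At or below percentile 50 were 30 members. Without that region, the median percentile was 33.0, 25.1 and 50.6 for SOX2, OCT4 and NANOG in NT2/D1, and 45.95, 53.4 and 48.2 in H9. In the NT2/D1 OCT4 list, 9 of 15 members held 6 tags or fewer. The 7 regions that only this list held had a median percentile of 23.2 and reached 37.6. Deposited FDRs of NT2/D1 OCT4 members ran from 1.06% to 21.9%. In H9 they ran from 0.68% to 27.59% for SOX2, 2.65% to 12.36% for OCT4 and 0.26% to 8.3% for NANOG.

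**Figure D4:**
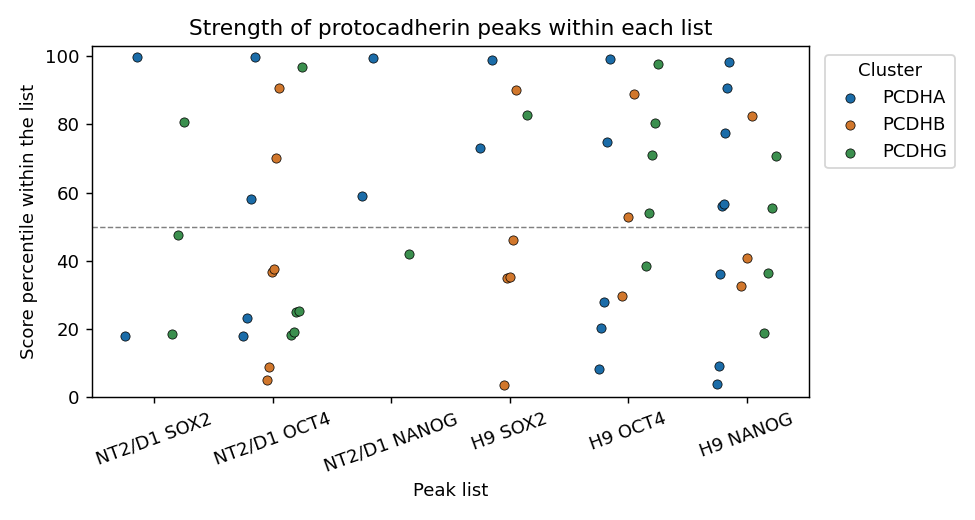
Score percentile of the 59 member peaks within their lists. Each point is a peak, columns are lists, colour gives the cluster and the dashed line marks percentile 50. The top point of each list is the PCDHA region in all 6 lists, between 98.3 and 99.8, and most PCDHB and PCDHG points of NT2/D1 OCT4 lie below 40.

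The share of members that overlapped a gene start was above that of the whole list in NT2/D1 OCT4 and in the 3 H9 lists. In NT2/D1 it was 0 of 5 SOX2 members, against 0.515% of the list, and 0 of 3 NANOG members, against 0.661%. For OCT4 in NT2/D1 it was 2 of 15 (13.3%), against 4.33%. In H9 it was 2 of 8 SOX2 members (25%), against 1.49%, and 4 of 13 OCT4 members (30.8%), against 2.27%. For NANOG in H9 it was 5 of 15 (33.3%), against 2.67%. These are small counts with no test. Members had to lie within 50 kb of a start, while peaks of the whole list did not. The clusters are also dense in starts, and the part of either in the counts was not tested. Of the 46 members away from a start, 32 lay beyond the nearest cluster start and 14 before it.

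Counted by gene, the share of cluster genes with a peak was set beside that of all protein-coding genes. Within 5 kb of a start, NT2/D1 SOX2 named 2 of 53 protein-coding cluster genes, against 15.9% of 19443 protein-coding genes. NT2/D1 OCT4 named 9 (17.0%), against 36%, and NT2/D1 NANOG named 2 (3.77%), against 16.9%. H9 SOX2 named 6 (11.3%), against 8.63%, H9 OCT4 9 (17.0%), against 22.3%, and H9 NANOG 8 (15.1%), against 19.9%. At 5 kb the share was below that of all genes in 5 lists and above it for H9 SOX2. Within 1 kb, NT2/D1 SOX2 named 1 (1.89%), against 6.01% of all genes, NT2/D1 OCT4 5 (9.43%), against 25.1%, and NT2/D1 NANOG 0, against 7.04%. H9 SOX2 named 3 (5.66%), against 3.96%, H9 OCT4 6 (11.3%), against 14%, and H9 NANOG 7 (13.2%), against 11.9%. At 1 kb H9 SOX2 and H9 NANOG were above the share of all genes, each by less than 1 gene. Over all lists, 18 cluster genes were named within 5 kb: 6 of 15 PCDHA, 4 of 16 PCDHB and 8 of 22 PCDHG genes.

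Within 50 kb the lists named 5, 15 and 3 of the 53 genes for SOX2, OCT4 and NANOG in NT2/D1, against 50.3%, 69.3% and 50.7% of all genes. In H9 they named 10, 14 and 12, against 30%, 50.1% and 48.9%. A peak names at most 2 genes, so in a row of close starts a gene can lie within 50 kb of a peak without being named. The same holds within 5 kb and 1 kb, so all these counts are lower limits.

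For each factor, some NT2/D1 regions met an H9 region of the same factor. For SOX2 this was 1 region, 20% of 5 in NT2/D1 and 12.5% of 8 in H9, against 8.30% and 16.5% in the series. For OCT4 it was 5 regions, 38.5% of 13 in NT2/D1 and 38.5% of 13 in H9, against 17.0% and 26.8%. For NANOG it was 1 region, 33.3% of 3 in NT2/D1 and 6.67% of 15 in H9, against 9.88% and 9.94%. The SOX2 and the NANOG region were both the one beyond PCDHAC2.

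The same count within 50 kb was made for 13 protocadherin genes outside the clusters. SOX2 named 6 of 13 in NT2/D1 and 7 in H9, OCT4 7 in NT2/D1 and 11 in H9, and NANOG 6 in NT2/D1 and 10 in H9. In NT2/D1 the shares for SOX2, OCT4 and NANOG were 46.2%, 53.8% and 46.2%, against 50.3%, 69.3% and 50.7% of all genes. In H9 they were 53.8%, 84.6% and 76.9%, against 30%, 50.1% and 48.9%. The shares for SOX2 and NANOG in NT2/D1 are within 1 gene of the share of all genes, and no difference was tested. PCDH8, which encodes a protocadherin outside the clusters, had peaks of all 6 lists 31.2 to 31.6 kb from its start. Their folds were 23.9, 14.7 and 24.6 for SOX2, OCT4 and NANOG in NT2/D1, and 23.7, 12.3 and 40 in H9. PCDH9 had folds of 20.2, 14.3 and 38.8 in H9, 28.0 to 28.2 kb from its start, and was named by no NT2/D1 list within 50 kb. PCDH18 had percentiles of 98.1 for OCT4 and 27.6 for SOX2 in NT2/D1, and of 88.6 to 92.8 in H9.

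Of 13 genes for factors that act on protocadherin promoter choice or their silencing, 8, 12 and 6 were named within 50 kb by SOX2, OCT4 and NANOG in NT2/D1, and 6, 8 and 7 in H9. In NT2/D1 these are 61.5%, 92.3% and 46.2%, against 50.3%, 69.3% and 50.7% of all genes. In H9 they are 46.2%, 61.5% and 53.8%, against 30%, 50.1% and 48.9%. The NANOG shares are within 1 gene of the share of all genes in both lines, and no difference was tested. REST, which encodes a repressor of neuronal genes, had peaks of all 6 lists within 134 bp of its start. Their folds were 19.2, 30.4 and 17.4 for SOX2, OCT4 and NANOG in NT2/D1, and 17.1, 10.3 and 25.2 in H9. DNMT3B, which encodes a DNA methyltransferase, had NANOG folds of 18.1 in NT2/D1 and 25.4 in H9, 783 and 702 bp from its start. CTCF, which encodes the factor bound at active protocadherin promoters, had folds of 9.58 for SOX2 and 17.6 for OCT4 in NT2/D1, and 8.41 and 5.29 in H9, at 30.5 to 30.7 kb. No NANOG peak was assigned to CTCF within 50 kb in either line.

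A list of 19 cadherin genes other than protocadherins was counted in the same way. SOX2 named 8 of 19 in NT2/D1 and 6 in H9, OCT4 14 in NT2/D1 and 12 in H9, and NANOG 10 in NT2/D1 and 11 in H9. In NT2/D1 these are 42.1%, 73.7% and 52.6% for SOX2, OCT4 and NANOG, against 50.3%, 69.3% and 50.7% of all genes. In H9 they are 31.6%, 63.2% and 57.9%, against 30%, 50.1% and 48.9%. Those of OCT4 and NANOG in NT2/D1 and of SOX2 in H9 are within 1 gene of the share of all genes. CDH5, the endothelial cadherin gene, reached percentile 98.6 for NANOG in NT2/D1 and was named in H9 by OCT4 alone, at percentile 24.9. CDH13 was named by all 6 lists, with percentiles of 87.7 to 96.0 in NT2/D1 and 93.4 to 95.6 in H9. CDH22 reached percentile 95.3 for NANOG in NT2/D1 and 56.4 for OCT4 in H9.

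Within 50 kb, 18 genes in or beside the locus were counted too. SOX2 named 6 in NT2/D1 and 4 in H9, OCT4 10 in NT2/D1 and 7 in H9, and NANOG 6 in NT2/D1 and 8 in H9. In NT2/D1 these are 33.3%, 55.6% and 33.3% for SOX2, OCT4 and NANOG, against 50.3%, 69.3% and 50.7% of all genes. In H9 they are 22.2%, 38.9% and 44.4%, against 30%, 50.1% and 48.9%. None of these differences was tested. The strongest site among them was listed for FCHSD1 and ARAP3, with folds of 11.3 for SOX2 and 16.2 for OCT4 in NT2/D1. In H9 it had a SOX2 fold of 13.3, an OCT4 fold of 7.88 and a NANOG fold of 30.1. PCDH1, which is not part of the clusters, reached percentile 86.3 for NANOG in NT2/D1 and 88.6 for OCT4 in H9 within 50 kb. One NT2/D1 NANOG peak of the locus was no member, as SLC25A2 and TAF7 were its listed genes.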

How the data were processed

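SOX2, OCT4 and NANOG were mapped by ChIP-seq in NT2/D1 and H9, with 1 library each, and 8 samples are labelled, of which the 2 IgG samples were not analysed on their own. The authors called peaks with MACS for each library against a control library, without pooling, with a p-value cutoff of 0.001, per the file headers. The band width was 200 in NT2/D1 and 2000 in H9, and the model fold was 5 for NT2/D1 OCT4 and 3 otherwise, per the file headers. Coordinates are in hg19, going by the submitters' processing notes. Neither aligner nor MACS version is given in the sources used here. All H9 lists had 1 control, NT2/D1 SOX2 and NANOG shared another, and NT2/D1 OCT4 had one of its own, going by tag totals. The labels give only 1 NT2/D1 IgG sample, so they do not account for both NT2/D1 controls. The deposited tag count is the number of tags in a peak. The deposited fold is a ratio over background, and the deposited FDR is in percent. The deposited score has a header that does not name it, and its lowest value was 30 in every list. The nearest genes and distances were added by the submitters, per the file headers.

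Peaks were selected, joined and counted with Python 3.11.15 and pandas 2.3.3, and intervals are exact binomial intervals from scipy 1.17.1. Where a peak met the rule for 2 clusters (9 of 59), it was assigned to the nearer gene. Gene names were matched by accession to RefSeq (23834 of 25014), whose coordinates belong to a later build and were not used, apart from the order of genes. No test between libraries was possible. The joining and selection were checked on simulated data. The text names all regions in at least 2 lists, the strongest member of each cluster and list, members within 1 kb of a start and up to 3 genes of each related list. A few further members beside these sites were named after their values were seen. The members, lists and tests were chosen with earlier results of these data known.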

Additional observations from a re-analysis of the deposited data

How the results depend on the processing

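Each choice was changed on its own, and 41 of 68 values stayed within 1.5 times the reported one. No paired analysis was possible because each factor and line had 1 library. Assigning by the nearer gene and leaving out the widest 1% of peaks changed no count by more than that. Under each of the 4 alternatives run on regions, there were 1 region in all 6 lists and 3 with all 3 factors in H9. With a limit of 10000 bp, members fell to 1 for NT2/D1 SOX2, 8 for H9 OCT4 and 8 for H9 NANOG. In the upper 50% of each list by score they were 2 for SOX2 and 5 for OCT4 in NT2/D1. In H9 SOX2 had 4, OCT4 had 8 and NANOG had 8. With lists of equal length (19349 peaks) they were 2 for SOX2 and 5 for OCT4 in NT2/D1, and 8 for NANOG in H9. With the libraries exchanged as in the other label field, NT2/D1 would have 3 OCT4 and 15 NANOG members. Regions numbered 15 in the upper 50% and 20 with equal length, those in at least 2 lists 7 in each, and those in both lines 5 in each and 5 with a reciprocal overlap of 50%. Genes named within 5000 bp rather than 50000 bp were 2 for SOX2 and 9 for OCT4 in NT2/D1, and 6 for SOX2 and 9 for OCT4 in H9. With equal length, genes named within 50000 bp were 3 for SOX2 and 5 for OCT4 in NT2/D1, and 7 for NANOG in H9. Fewer peaks enter in the upper 50%, with equal length and with a shorter distance limit by construction. For the reciprocal overlap the cause was not tested. The weakest NT2/D1 members held 5 tags, and no alternative changed depth.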
